A study of Mus musculus with 6 samples.

Results

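The TAM receptors are a family of receptor tyrosine kinases, Axl, Mertk and Tyro3, which are activated by the secreted vitamin K-dependent proteins Gas6 and Pros1. The genes described here are these 5 of the 48967 mouse genes for which counts were made. Mertk, Tyro3, Gas6 and Pros1 were taken for their membership of the family. Axl was chosen by its measured values, namely that it had counts in the control libraries and none in the delipidated libraries. These values of Axl are therefore a description and were given no test.

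The ligands form a bridge between cells. One end, rich in γ-carboxylated glutamate, binds phosphatidylserine exposed on the outer face of a membrane, and the other end binds the receptor. Gas6 binds each of the receptors, whereas Pros1 acts mainly through Tyro3 and Mertk. The receptors are best known for the engulfment of apoptotic cells, for restraint of innate immune signalling and, in the case of Axl, for the migration and survival of mesenchymal and tumour cells.

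RNA was measured in 2-cell embryos that developed from control zygotes or from delipidated zygotes, with 3 libraries in each group and 3 embryos pooled in each library. All embryos were wild type and came from F1 females mated with F1 males, the F1 being a cross of the strains C57Bl/10 and CBA/H. Both groups were kept from 0.5 to 2.0 dpc in KSOM medium free of fatty acids. Embryos of several females were pooled before they were allocated to the groups, so p-values measure the spread between pools of embryos, which may be technical. For delipidation, zygotes were held in cytochalasin B at 50 µg/mL and spun at 4200 g and then at 9500 g to bring the lipid droplets together, after which the zona pellucida was opened with a laser and the droplets were aspirated. The labels give this same protocol text for every sample, and whether the control zygotes of the sequenced groups received the drug and the spins is not given in the sources used here. If they did not, removal of the droplets and these handling steps cannot be told apart.

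The files hold counts per exonic part, the smallest unit into which overlapping exons of a gene divide, and parts were summed to genes. A read that spans several parts is counted in each, so the sums exceed the number of reads and overstate the precision. Counts assigned to genes were 12164963, 16165958 and 12980787 in control replicates 1, 2 and 3, and 20059460, 16332103 and 14683741 in delipidated replicates 1, 2 and 3. The median was 12980787 in control and 16332103 in delipidated libraries. Fewer genes had at least 1 count in the delipidated libraries. Their number was 22855, 22437 and 20582 in the controls and 17091, 19408 and 20158 in the delipidated pools. Levels are given in CPM, counts scaled to a common library size, with TMM scaling, as mean ± SD over 3 libraries.

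Among the receptors, Axl had counts in the control libraries alone. The gene (ENSMUSG00000002602) lies on the minus strand of GRCm38 at chr7:25757273-25788705. It had 59, 2 and 206 counts in control replicates 1, 2 and 3 and 0 counts in each of the 3 delipidated libraries. This corresponds to 4.98, 0.121 and 15.7 CPM in the control libraries, a mean of 6.92 ± 7.95 (SD, n = 3) against 0. The control libraries differed widely from each other, and control replicate 2, with 2 counts, was close to the delipidated libraries. The control mean was 2.55 CPM without control replicate 3, 7.89 without control replicate 1 and 10.3 without control replicate 2. In pools of whole embryos, fewer cells with Axl RNA and less Axl RNA per cell cannot be told apart.

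A count of 0 is a limit of depth and not an absence. In the delipidated libraries, 3 counts would have been 0.148, 0.184 and 0.212 CPM. This floor was set beside the Axl exonic part with the most counts, since a read counts once there. This part, chr7:25766793-25766888 in exon 13, had 18, 0 and 23 counts in the control libraries. With the floor set at 3 counts in each delipidated library, the control mean of this part was 6 times the floor. The ratio was 4.82 without control replicate 1, 9 without control replicate 2 and 4.19 without control replicate 3, and it covers counting error only. Axl and the part were chosen by these counts, and control replicate 2 was itself at 0 on the part. The ratio therefore describes the libraries and supports no difference between the groups.

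The counts of Axl were spread over the transcript in 1 library only. Exons are numbered here along the longest annotated coding transcript, which has 20 exons in Axl. In control replicate 3, 17 of the 33 exonic parts of Axl had counts, from exon 1 to exon 19, and 179 of the 206 counts lay in parts that are wholly coding. Control replicate 1 had counts on 5 parts, all of them coding, in exon 9 and in exons 11 to 14. In control replicate 2 both counts lay on a single part, chr7:25757273-25757629, at the far end of the 3′ UTR. Of the 33 parts, 20 had a count in at least 1 control library, 3 had counts in at least 2 of them, and 13 had none. None of the parts overlapped another annotated gene, so the counts of Axl are not shared with a gene on either strand.

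Presence in every control library with 0 counts in every delipidated library was the pattern for which Axl was chosen. Of the 16228 genes with at least 1 count in every control library, 321 (1.98%) had 0 counts in every delipidated library, and Axl was the 1 member of the family among them. Of the 14369 genes with counts in every delipidated library, 29 (0.202%) had 0 counts in every control library, and 0 members of the family were among them. The count of 321 depended on the libraries used, since fewer libraries make the criterion easier to meet. It was 748, 751 and 941 without control replicates 1, 2 and 3, and 458, 616 and 685 without delipidated replicates 1, 2 and 3. With at least 10 counts required in every control library it was 28, and Axl, with 2 counts in control replicate 2, did not meet that criterion.

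By its control level Axl was the second of these 321 genes. The first was Vim, which encodes the intermediate filament protein vimentin of mesenchymal cells, at a mean of 14.8 CPM, and the third was Gramd1a at 3.95 CPM. Both were named after their values had been seen. Of the 9143 genes that were counted in every control library at or above the control mean of Axl, 2 had 0 counts in every delipidated library, Axl and Vim. Axl was chosen by these values, so this count and its place describe the libraries and support no difference between the groups. The place of Axl rested on control replicate 3. With that library left out of the means, an alternative chosen after seeing the data, Axl was number 7 of the 321, and 7 of the 11795 genes at or above its mean of 2.55 CPM were at 0 in every delipidated library. It stayed number 2 with control replicate 1 or 2 left out.

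**Figure D1:**
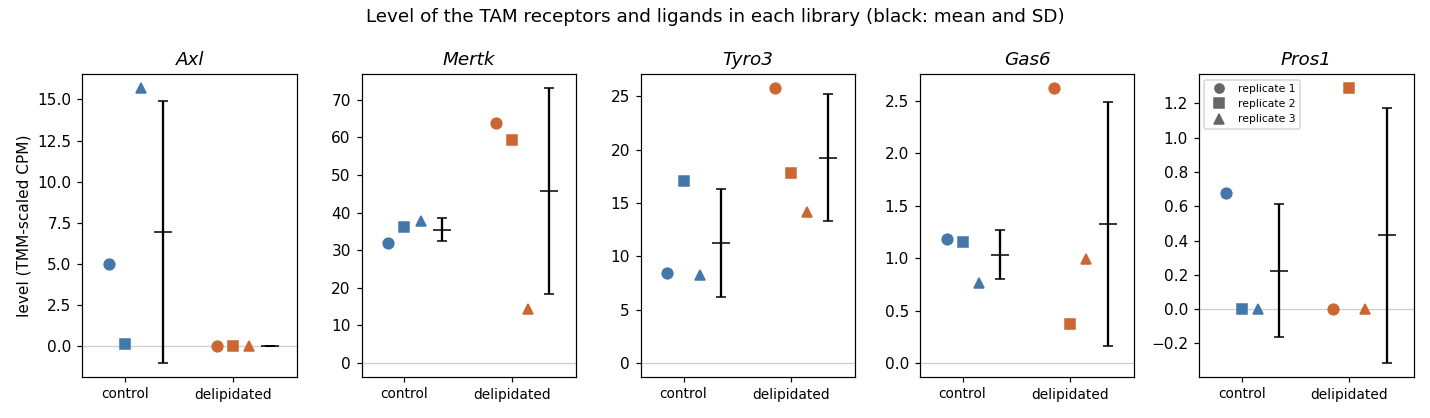
TMM-scaled CPM of the 5 genes in each library (points, 1 symbol per replicate) for control and delipidated 2-cell embryos, with mean and SD in black. Axl was at 0 in each delipidated library and varied between 0.121 and 15.7 CPM in the controls, while the groups overlapped for Mertk, Tyro3, Gas6 and Pros1.

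Mertk, the receptor for which the engulfment of dying cells and of photoreceptor outer segments is best established, had the highest level in the family. The gene (ENSMUSG00000014361) lies on the plus strand at chr2:128698956-128802894. It had 379, 600 and 499 counts in the controls and 1292, 966 and 203 counts in the delipidated pools. In CPM, the control libraries lay close together at 32.0, 36.3 and 37.9, and the delipidated libraries were spread on both sides of them, at 63.8, 59.3 and 14.3. Group means were 35.4 ± 3.07 and 45.8 ± 27.4 CPM. The log2 fold change, delipidated against control, was 0.37, its standard error 0.47 (edgeR quasi-likelihood test, unadjusted p = 0.446, adjusted p = 1.00 over all genes tested). The exact two-sided permutation test of the CPM values gave p = 0.5, and with 3 libraries against 3 the smallest p it can give is 0.1.

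The delipidated replicate 3 set the spread of Mertk. Without it the log2 fold change was 0.80, with an unadjusted p of 0.0254 and an adjusted p of 0.863 in edgeR's test. Across leaving out each of the 6 libraries in turn, the value lay between 0.06 and 0.80. With the single exonic part with the most counts in place of the sum it was -0.04, so the direction was not fixed by these data. That part, chr2:128729186-128729594 in exon 2, had 65, 130 and 102 counts in the controls and 238, 141 and 13 in the delipidated pools.

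Mertk counts covered most of the transcript in every library. Of its 22 exonic parts, 21, 20 and 18 had counts in the controls and 20, 21 and 16 in the delipidated pools. The balance between the ends of the transcript varied within both groups, which was examined after the counts had been seen. On exons 1 to 8 the level was 18.6, 21.5 and 15.1 CPM in the controls and 41.0, 21.6 and 3.32 CPM in the delipidated pools. On exons 9 to 19, which include those of the kinase domain, it was 13.4, 14.8 and 22.9 CPM in the controls and 22.8, 37.0 and 11.0 CPM in the delipidated pools. The low value of delipidated replicate 3 was thus more marked on exons 1 to 8 than on exons 9 to 19.

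Tyro3, the receptor known mainly from the nervous system, was measured at a lower level than Mertk. The gene (ENSMUSG00000027298) lies on the plus strand at chr2:119797733-119818104. Its counts were 100, 282 and 109 in the controls and 523, 290 and 201 in the delipidated pools, or 8.44, 17.1 and 8.29 CPM and 25.8, 17.8 and 14.2 CPM. The groups overlapped, because control replicate 2 was above delipidated replicate 3. Group means were 11.3 ± 5.02 and 19.3 ± 5.95 CPM. The log2 fold change was 0.77, its standard error 0.48 (edgeR, unadjusted p = 0.133, adjusted p = 1.00), and the exact two-sided permutation test gave p = 0.2. Without control replicate 2 the log2 fold change of Tyro3 was 1.21 in edgeR's test, with an unadjusted p of 0.0456 and an adjusted p of 1.00. Of the 36 exonic parts of Tyro3, 15, 21 and 11 had counts in the controls and 18, 22 and 18 in the delipidated pools.

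**Figure D2:**
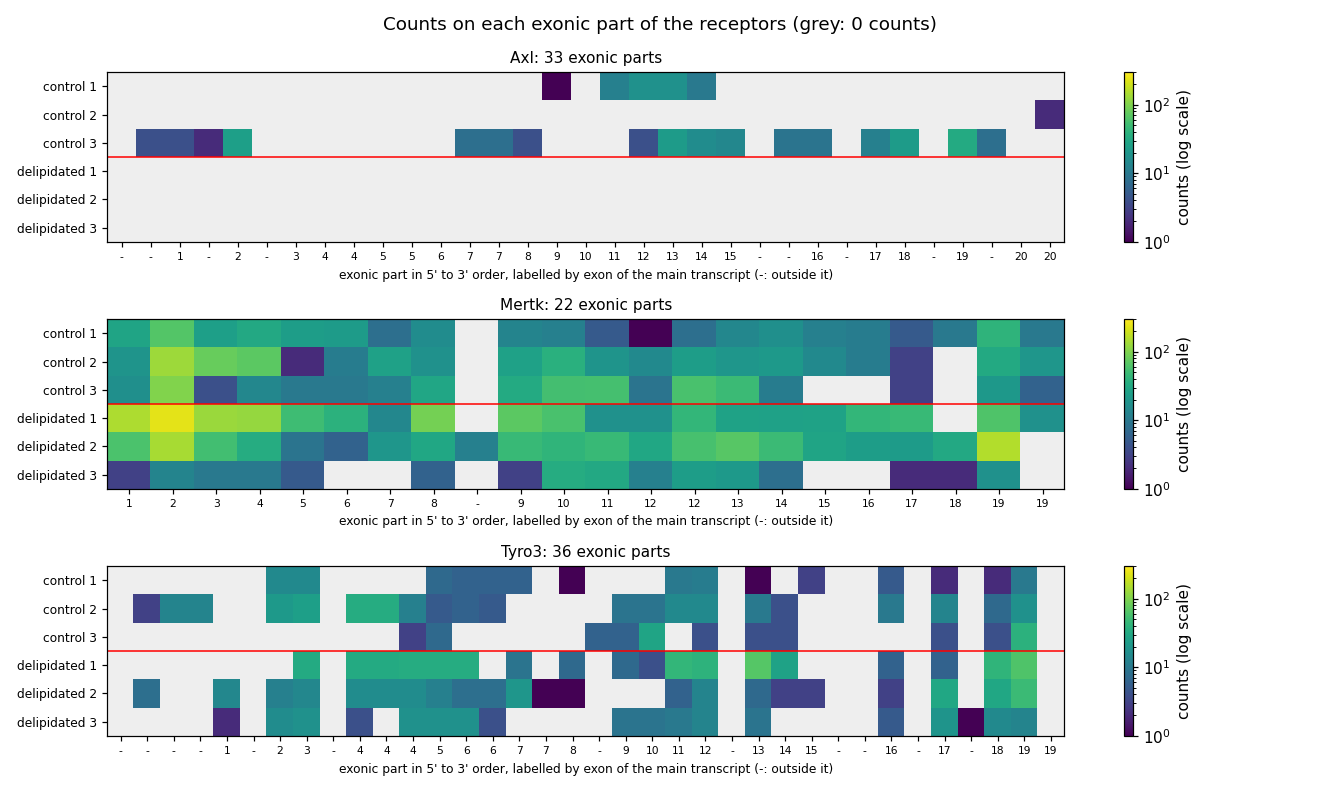
Counts on each exonic part of Axl, Mertk and Tyro3 (columns, 5′ to 3′, labelled by exon) in each library (rows), with color on a log scale and grey for 0 counts. Mertk was covered along its length in all 6 libraries, while Axl had counts on 5, 1 and 17 of its 33 parts in the control libraries and on none in the delipidated libraries.

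The receptors share the TAM kinase signature, a short run of residues in the kinase domain. In a search of the annotated transcripts of 21877 protein-coding genes, in any forward reading frame, 3 genes (0.0137%) encoded it, and these were Axl, Mertk and Tyro3. In each of them it lay in an exon of 160 bases, 2 exons before the last. This exon is chr7:25761405-25761564 in Axl (exon 18, minus strand), chr2:128792946-128793105 in Mertk (exon 17, plus strand) and chr2:119812803-119812962 in Tyro3 (exon 17, plus strand). The sequences of GRCm38, located with GENCODE vM21, are given 5′ to 3′ on the strand of the gene to show how alike the receptors are at this shared exon. Capitals mark the bases that encode the signature.
Axl: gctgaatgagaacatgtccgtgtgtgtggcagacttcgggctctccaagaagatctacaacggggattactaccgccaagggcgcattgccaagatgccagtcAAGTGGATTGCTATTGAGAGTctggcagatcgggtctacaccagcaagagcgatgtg
Mertk: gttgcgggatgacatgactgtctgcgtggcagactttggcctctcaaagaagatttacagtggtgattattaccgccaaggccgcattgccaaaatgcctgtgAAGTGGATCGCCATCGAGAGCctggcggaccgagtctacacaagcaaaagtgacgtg
Tyro3: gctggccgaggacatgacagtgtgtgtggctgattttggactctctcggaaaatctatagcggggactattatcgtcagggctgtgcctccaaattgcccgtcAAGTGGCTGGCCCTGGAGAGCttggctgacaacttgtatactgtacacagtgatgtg

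The exon was identical at 127 of 160 bases (79.4%) between Axl and Mertk, at 107 (66.9%) between Axl and Tyro3 and at 109 (68.1%) between Mertk and Tyro3. On it, Axl had 0, 0 and 23 counts in the controls and 0 in each delipidated library. Mertk had 5, 3 and 3 counts there in the controls and 47, 23 and 2 in the delipidated pools. Tyro3 had 2, 13 and 4 counts there in the controls and 6, 30 and 19 in the delipidated pools. The kinase exon was thus read in all 6 libraries for Mertk and Tyro3 and in 1 library for Axl.

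Of the ligands, Gas6 had few counts. The gene (ENSMUSG00000031451), whose product is the ligand common to the receptors, lies on the minus strand at chr8:13465374-13494490. It had 14, 19 and 10 counts in the controls and 53, 6 and 14 in the delipidated pools, with means of 1.03 ± 0.234 and 1.32 ± 1.16 CPM. The log2 fold change was 0.36, its standard error 1.32 (edgeR, unadjusted p = 0.788, adjusted p = 1.00), and the exact two-sided permutation test gave p = 0.9. The highest value rested on a region that is not particular to Gas6. The part chr8:13468192-13468364 in exon 13 overlaps an exon of Tmem255b on the opposite strand, and it held 41 of the 53 counts of delipidated replicate 1 and all 6 counts of delipidated replicate 2. Reads of the genes cannot be told apart there, because the counts did not separate the strands. Without this part, an alternative chosen after seeing the data, Gas6 had 12, 19 and 10 counts in the controls and 12, 0 and 14 in the delipidated pools. The log2 fold change was then -0.88, its standard error 1.66 (edgeR, adjusted p = 1.00). With the part kept and delipidated replicate 1 left out, it was -0.60. The direction of Gas6 was therefore not determined at this depth.

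Pros1, which encodes the anticoagulant protein S, was at the limit of detection. The gene (ENSMUSG00000022912) lies on the plus strand at chr16:62854307-62929346. It had 8 counts in control replicate 1, 21 counts in delipidated replicate 2 and 0 counts in the other 4 libraries. The 21 counts lay on the single part chr16:62907662-62907783 in exon 8. Group means were 0.225 ± 0.39 and 0.43 ± 0.745 CPM, and no difference was detectable at this depth.

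Of the 5 genes, 3 passed the filter on low counts, namely Mertk, Tyro3 and Gas6. The filter removed Pros1, and it also removed Axl. Of the 3 tested, 0 were called by edgeR at an adjusted p under 0.05 and a log2 fold change beyond 1, as were 0 of all 16020 genes tested (0%). At an unadjusted p under 0.05, 463 of the 16020 genes passed, and with that threshold 184 genes (1.15%) were higher in delipidated embryos, 0 of the 3 members among them, and 279 genes (1.74%) were lower, again 0 of the 3 members. By other settings, DESeq2 without a filter before the fit called 49 genes and edgeR without a filter called 30. None of Mertk, Tyro3, Gas6 and Pros1 was past an adjusted p of 0.05 in any setting that tested it. The median log2 fold change of the 3 tested members was 0.37, and that of all genes tested was 0.00.

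Per kb of exon, the order of the levels in control embryos was Mertk (8.16 ± 0.709 CPM per kb), Tyro3 (1.82 ± 0.81), Axl (1.37 ± 1.58), Gas6 (0.404 ± 0.092) and Pros1 (0.055 ± 0.0953). Mertk stood above the others by more than their spread, whereas Tyro3 and Axl, and Axl and Gas6, did not differ beyond the spread between libraries. In delipidated embryos the order was Mertk (10.6 ± 6.31 CPM per kb), Tyro3 (3.11 ± 0.96), Gas6 (0.52 ± 0.456) and Pros1 (0.105 ± 0.182), with Axl at 0. Gas6 and Pros1 did not differ beyond their spread in delipidated embryos. Mertk and Tyro3 overlapped there, since Mertk in delipidated replicate 3 (3.31 CPM per kb) was below Tyro3 in delipidated replicate 1 (4.17).

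Among 58 receptor tyrosine kinases, ordered by mean control level per kb, Mertk was number 6, Tyro3 number 19 and Axl number 22, while Ryk and Kit, named after their values had been seen, came first. Without control replicate 3 the control mean of Axl was 2.55 CPM in place of 6.92, and its place among the kinases was not determined without that library. Counts were found for 56, 52 and 52 of the 58 in the controls and for 42, 48 and 51 in the delipidated pools, next to the lower number of all genes with counts in the delipidated pools. The summed level of the 58 was 935 ± 78.0 CPM in control and 927 ± 90.4 CPM in delipidated embryos. Of the 46 kinases with counts in every control library, Axl was the 1 with 0 counts in every delipidated library, next to 1.98% of all genes, a share near that of 1 in 46. The reverse was found for 0 of the 58, next to 0.202% of all genes. Axl met this criterion through 2 counts in control replicate 2, and 3 other kinases were also at 0 in every delipidated library, with counts in 1 or 2 control libraries. These were Erbb2 with 21, 9 and 0 counts in the controls, Pdgfrb with 16, 0 and 19 and Flt3 with 34, 0 and 0, named after their values had been seen. Of the 45 that were tested, 0 were called, 1 was higher and 0 were lower in delipidated embryos at an unadjusted p under 0.05, next to 1.15% higher and 1.74% lower among all genes tested. The median log2 fold change of the 45 was -0.12. The 1 higher was Alk, a receptor of the developing nervous system, with 6, 0 and 0 counts in the controls and 79, 59 and 99 in the delipidated pools. Alk passed the filter on low counts only through the delipidated libraries, where it was high, so neither its p-value nor the count of 1 supports a difference.

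**Figure D3:**
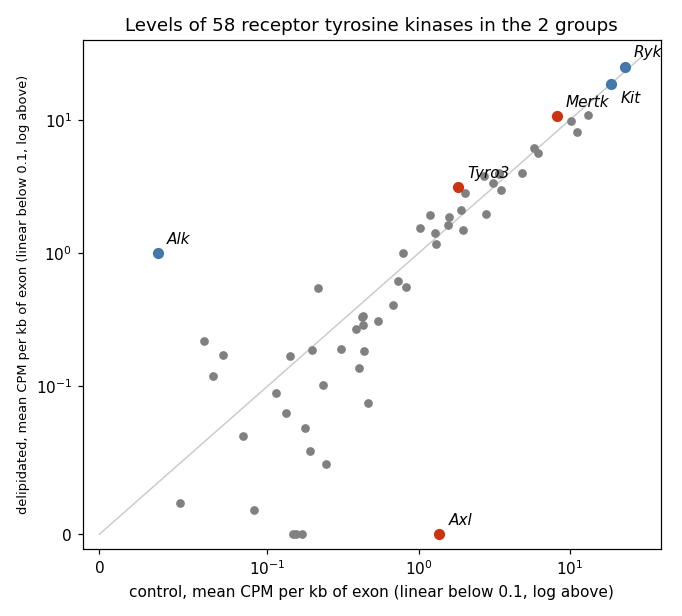
Mean level per kb of exon of 58 receptor tyrosine kinases in control (x axis) and delipidated (y axis) 2-cell embryos, n = 3 libraries each, on axes that are linear below 0.1 and logarithmic above, with a grey line at equal levels. The TAM receptors are in red, and Axl lies on the bottom edge at 0 in delipidated embryos together with Erbb2, Flt3 and Pdgfrb.

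The genes on either side of the receptors in the pathway were measured in both groups. In the pathway lists other than the TAM members and the receptor tyrosine kinases, 68 genes were found and 59 were tested. Of these, 0 were called by edgeR, and 1 was higher and 1 was lower in delipidated embryos at an unadjusted p under 0.05, next to 1.15% higher and 1.74% lower among all genes tested. The median log2 fold change was 0.06, with 35 positive and 24 negative values, next to 8003 positive and 8016 negative values among all genes tested.

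Upstream of the receptors, 3 further proteins reported as ligands, Tub, Tulp1 and Lgals3, were tested, with a median of 0.47 in log2 fold change and none past an unadjusted p under 0.05. Tub was at 26.6 ± 2.34 CPM in control and 36.3 ± 13.1 CPM in delipidated embryos, and Tulp1 at 7.32 ± 6.71 and 10.1 ± 8.91 CPM. The 3 genes of vitamin K-dependent carboxylation, which equips Gas6 and Pros1 to bind membranes, had a median of -0.02. The carboxylase gene Ggcx was at 5.13 ± 0.583 and 3.73 ± 1.06 CPM, and the vitamin K reductase gene Vkorc1l1 at 14.2 ± 6.07 and 14.9 ± 10.9 CPM.

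Exposure of phosphatidylserine, to which the ligands bind, is set by scramblases and by flippases that return the lipid to the inner leaflet. Of 13 such genes 11 were tested, with 0.26 as the median log2 fold change and none past an unadjusted p under 0.05. The flippase genes Atp11a (139 ± 8.64 and 142 ± 22.2 CPM) and Atp11b (132 ± 36.3 and 157 ± 22.2 CPM) were the most abundant. Of 16 other receptors and bridging proteins for phosphatidylserine, 11 were tested, with a median of 0.21. In this list Timd4, which encodes the phosphatidylserine receptor TIM-4, had 168, 58 and 125 counts in the controls and 305, 424 and 345 in the delipidated pools. Its log2 fold change was 1.27, its standard error 0.55, past an unadjusted threshold only (edgeR, unadjusted p = 0.0391, adjusted p = 1.00).

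The extracellular parts of Axl and Mertk are released by the metalloproteases Adam10 and Adam17. Adam17 was at 185 ± 57.2 CPM in control and 200 ± 31.8 CPM in delipidated embryos, and Adam10 at 108 ± 30.3 and 104 ± 20.3 CPM. The third gene of this list, the inhibitor Timp3, had too few counts to be tested, and the median of the 2 tested was 0.03.

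Downstream, 29 of 30 signalling genes were tested, with a median log2 fold change of -0.04. Shc1, an adaptor of receptor tyrosine kinases, was the 1 gene past an unadjusted p under 0.05. It had 739, 1174 and 852 counts in the controls and 793, 736 and 610 in the delipidated pools, with means of 66.0 ± 4.46 and 42.5 ± 3.07 CPM (edgeR, log2 fold change -0.64, standard error 0.27, unadjusted p = 0.0349, adjusted p = 1.00).

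Axl is expressed by stromal cells and by leukocytes in adult tissues, so markers of other cell types were measured beside it. Of 12 stromal markers, 10, 9 and 10 had counts in the controls and 2, 5 and 7 in the delipidated pools. Among all genes, 22855, 22437 and 20582 had counts in the controls and 17091, 19408 and 20158 in the delipidated pools. Their summed level was 49.1, 53.5 and 88.9 CPM in the controls and 66.3, 60.6 and 38.2 CPM in the delipidated pools. Fn1 was the most abundant, and its group means differed in the opposite direction from the rest of the sum. Fn1 was at 14.4, 27.6 and 28.4 CPM in the controls and 64.3, 45.3 and 17.0 CPM in the delipidated pools. Without Fn1, a sum taken after seeing the data, the other 11 were at 34.7, 25.9 and 60.6 CPM in the controls and 1.93, 15.2 and 21.2 CPM in the delipidated pools. Fn1 was left out after its direction was known, and the 11 include Vim and Sparc, which were high in the controls. This sum therefore supports no difference between the groups. Fn1 and Postn, the latter named after its values had been seen, had positive log2 fold changes (0.85 and 0.46), the other 5 tested had negative ones, and none of the 12 was at 0 in every library. Among the untested, Dcn had 27 counts in delipidated replicate 3 alone, and Thy1 had 2, 2 and 1 counts in the controls and 0, 40 and 3 in the delipidated pools. Col3a1, Lum and Pdgfrb were at 0 in every delipidated library. The untested were named after their values had been seen. Of the 7 tested stromal markers, 0 were called, and 3 were lower and 0 higher at an unadjusted p under 0.05, next to 279 of 16020 (1.74%) lower among all genes. All 3 passed the filter on low counts only through the control libraries, where they were high, so the count supports no difference. The 3 were Vim with 152, 145 and 300 counts in the controls and 0 in the delipidated pools, Col1a1 with 11, 26 and 42 counts and 0, and Sparc with 91, 31 and 335 counts and 0, 8 and 32, named after their values had been seen.

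Of 12 markers of leukocytes and macrophages, 10, 7 and 7 had counts in the controls and 3, 5 and 7 in the delipidated pools. The number of all genes with counts was also lower in the delipidated pools. Their sum was 16.6, 9.8 and 11.2 CPM and then 4.15, 5.84 and 14.7 CPM, with Csf1r the most abundant. Among the 5 with counts in every control library, 2 had 0 in every delipidated library, Cd14 and Lyz2, next to 1.98% of all genes. In the controls Cd14 had 3, 14 and 2 counts and Lyz2 had 2, 8 and 8. Both had too few counts to be tested, so this share supports no difference. Adgre1, C1qa and Tyrobp were also at 0 in every delipidated library, and the mean of Ptprc was lower there. Others went the other way. C1qb had 14, 0 and 0 counts in the controls and 17, 31 and 24 in the delipidated pools, and Fcer1g had 15 counts in delipidated replicate 3 alone. Cd14, Lyz2, Adgre1, C1qa, Tyrobp, Ptprc, C1qb and Fcer1g were named after their values had been seen. Log2 fold changes were positive for 1 of the 5 tested, C1qb (1.91), and negative for 4. C1qb passed the filter on low counts only through the delipidated libraries, where it was high, so its value supports no difference. None of the 5 tested was past an unadjusted p under 0.05. Cumulus cells were removed from the zygotes with hyaluronidase, and the zygotes were then washed. Of 15 markers of cumulus and granulosa cells, 8, 9 and 9 had counts in the controls and 5, 6 and 6 in the delipidated pools, again next to fewer genes with counts there. Their sum was 203, 258 and 296 CPM and then 257, 233 and 165 CPM. Nr5a2, which the early embryo also expresses, made up 86.2% of it over the 6 libraries, and none of the 5 tested was past an unadjusted p under 0.05. Log2 fold changes were positive for 2 of the 5 tested and negative for 3. The markers Foxl2, Ptx3 and Cd44 were at 0 in every library, while Cyp11a1, a gene of steroid synthesis, had 4, 0 and 653 counts in the controls and 0 in the delipidated pools. Fshr, Inha and Inhba were also at 0 in the delipidated pools, and the mean of Has2 was lower there. The means of Amh (0.126 and 0.348 CPM) and Ptgs2 (0.189 and 0.294 CPM) were higher in delipidated embryos. Cyp11a1 and these other untested markers with counts were named after their values had been seen. Of 9 markers of oviduct epithelium, 7, 8 and 7 had counts in the controls and 6, 8 and 8 in the delipidated pools, with a sum of 217, 390 and 258 CPM and then 245, 294 and 188 CPM, led by Epcam, which embryos also express. Of the 6 tested, 0 were called and 1 was lower at an unadjusted p under 0.05, next to 1.74% lower among all genes tested. This was Cdh1 (133 ± 7.61 and 77.6 ± 9.73 CPM). Log2 fold changes were positive for 2 of the 6 tested, Ovgp1 (0.83) and Epcam (0.14), and negative for 4. Among the untested, Foxj1 had 0, 0 and 0 counts in the controls and 0, 9 and 2 in the delipidated pools. Pax8 had 0, 23 and 0 counts and then 0, 0 and 20, and Muc1 had 4, 2 and 11 and then 0, 6 and 0. These genes other than Epcam were named after their values had been seen.

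For the markers of 2-cell embryos and for the oocyte and maternal genes, the summed levels differed between the groups by less than the spread between libraries. The sum of 11 markers of 2-cell embryos was 587 ± 111 CPM in control and 625 ± 26.0 CPM in delipidated embryos, with Dppa2 the most abundant. The sum of 11 oocyte and maternal genes was 2160 ± 375 and 2270 ± 423 CPM, with Dppa3 the most abundant. In both lists all 11 were tested and none was past an unadjusted p under 0.05. The part that RNA from other cells, depth or the number of genes with counts had in the pattern of Axl was not tested.

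Over the 6 libraries, the genes whose levels were most like those of Axl, by Pearson's r of log2(CPM + 0.5) among 17236 genes with a total of at least 50 counts, were Gm8011, Ifnar2, S100a11, Ltbp1 and Cav1, each with r = 0.998. Ltbp1, which encodes a protein that stores latent TGF-β in the matrix, had 72, 0 and 221 counts in the controls and 0 in the delipidated pools. Cav1, the gene of the caveolar coat protein, had 24, 0 and 54 counts, and S100a11, a calcium-binding protein gene, had 31, 0 and 75. Each of the 5 followed the same order as Axl in the control libraries and was at 0 in the delipidated pools. In all, 53 genes had r of at least 0.95, and these values rest on control replicates 1 and 3 and describe the libraries alone. For the other members r was -0.05 for Mertk, -0.164 for Gas6 and -0.881 for Tyro3, and the group difference for which Axl was chosen enters each of them.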

How the data were processed

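Libraries were prepared from pools of 3 embryos without RNA extraction, using a stranded total RNA kit with depletion of ribosomal RNA, and were sequenced as paired ends. The submitters' processing notes name bcl2fastq 2.20, Trimmomatic 0.36, STAR 2.5.2b, featureCounts and mm10. The authors deposited raw counts of unique reads per exonic part, 425461 parts in each library, with no normalization. Of these, 33309 lay under joined identifiers of overlapping genes, of which 27968 were assigned because they overlapped exons of 1 gene in GENCODE vM21. The others were left out, which removed 2.49% to 2.57% of the counts. Where 2 parts shared coordinates on opposite strands, the lower count divided by the higher had a median of 1 (11 pairs), so strand was in effect not used. Median counts assigned to genes were 12980787 in control and 16332103 in delipidated libraries. Symbols were found for 48676 genes.

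The test of delipidated against control libraries used edgeR 4.0.16 (R 4.3.3), with filterByExpr (minimum count 10, minimum total 15), TMM scaling, the quasi-likelihood test without covariates and Benjamini-Hochberg adjustment over all 16020 genes tested. The common biological coefficient of variation was 0.663. Alternatives were DESeq2 1.42.0 without a filter before the fit and edgeR with the size factors of DESeq2. Further fits of edgeR used no filter, a filter at a mean of 50 counts or the replicate number as a block. Others used the exonic part with the most counts, joined parts added to each gene, or each library left out in turn. DESeq2 kept its default filter on mean count and its check for outliers when p-values were adjusted. Replicates of a group differed from each other by more than counting noise. They are separate pools, and reads are counted in several parts, so this excess was built in and nothing is concluded from it. Tables were made with Python 3.11.15.

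Named genes were the 5 members, genes of each pathway list with an unadjusted p under 0.05 or otherwise its 2 most abundant, the most abundant gene and those at 0 in each marker list, receptor tyrosine kinases with counts in every library of one group and none in the other, and the 5 genes most like Axl. Others are marked where they appear. The members and lists were chosen with earlier results of these data known.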

Additional observations from a re-analysis of the deposited data

How the results depend on the processing

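The number of genes called was 0 with edgeR, where 463 genes had an unadjusted p under 0.05. It was 49 with DESeq2 without a filter before the fit (9 higher and 40 lower) and 30 with edgeR without a filter (5 higher and 25 lower). DESeq2 still applied its default filter on mean count to the adjusted p-values. The cause of these numbers was not tested. The number of genes called was 0 with the size factors of DESeq2 or a mean count of at least 50. It was also 0 with the exonic part with the most counts, joined parts added to each gene and each library left out in turn. Mertk changed direction with the exonic part with the most counts (log2 fold change -0.04), and lay between 0.06 and 0.80 with 1 library left out. Tyro3 kept its direction in each setting, with 0.51 to 1.21 when a library was left out. Gas6 changed direction without delipidated replicate 1, with a range of -0.60 to 0.80 when a library was left out, and without the part that overlaps Tmem255b (-0.88, chosen after seeing the data). Gas6 was removed by the filter at a mean count of 50 and with the single part, and these settings gave no value.

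The difference of the mean CPM of Pros1 was 0.205 and lay between -0.225 and 0.43 with a library left out. Without a filter before the fit, its log2 fold change was 0.91 in edgeR (standard error 2.87, adjusted p = 0.971) and 0.94 in DESeq2 (standard error 3.38, adjusted p = 1). With control or delipidated replicate 3 left out it passed the filter, at 0.34 and 1.50 (adjusted p = 1 in edgeR for both). A mean count of 50 and the block gave no value, since the filter removed it. Fits without a filter also return a value for Axl, which is not given because Axl was chosen by this contrast. The control mean of Axl lay between 2.55 and 10.3 CPM when a control library was left out, and was 6.95 CPM with total counts in place of TMM. The number of genes with the pattern of Axl, 321, was 228 at a minimum of 2 counts, 28 at a minimum of 10 counts, and between 458 and 941 with a library left out.

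With the replicate block, edgeR called 0 genes, with 406 at an unadjusted p under 0.05, and the log2 fold change was 0.14 for Mertk, 0.81 for Tyro3 and 0.01 for Gas6. Deviations of libraries with the same number correlated at -0.112, 0.092 and 0.057, so the numbers do not pair the samples.

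Low counts limit Gas6 and Pros1, and for Axl they limit control replicate 2 and the ratio to the floor. Pools of 3 embryos, 3 to a group, leave wide spread between libraries, and a p-value that misses the threshold does not show equal levels.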
